A study of Mus musculus with 20 samples.

Results

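The mitochondrial ribosome, or mitoribosome, translates the few messages that mitochondrial DNA encodes, which are core subunits of the oxidative phosphorylation complexes. Its RNAs come from mitochondrial DNA, but all of its proteins are made from nuclear genes, translated in the cytosol and imported. Mrpl genes encode proteins named for the large subunit, which forms peptide bonds, and Mrps genes proteins named for the small subunit, which reads the messenger. Part of the proteins descend from the bacterial ribosome and part were gained by mitochondria. Pluripotent cells of the mouse are known for a strong reliance on glycolysis, and their mitochondria are remodelled as they differentiate.

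The members are the transcript models in the authors' deposited expression table whose symbol begins with Mrpl or Mrps and a number, outside an interval of chromosome 17 that was not analysed here, where 1 further model lay. There were 65 models of 60 symbols, of 11767 named models of 10334 symbols. Of them, 41 models were of large-subunit names and 24 of small-subunit names. Below, large-subunit and small-subunit models are classed by these names alone, wherever the product sits. By origin, 39 models were homologues of bacterial proteins, 25 were specific to mitochondria, and Mrps28 was put in neither class. The 5 symbols Mrps9, Mrpl17, Mrps15, Mrps22 and Mrps31 had 2 models each. RefSeq lists 78 protein-coding mouse genes with such symbols, of which 17 were not in the table and were not analysed here. A filter on low counts passed 63 models, and Mrpl48 and Mrps9 model uc007avb.1 were below it.

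RNA was sequenced from mouse cells of 5 groups, with 2 libraries each. The iPS 2i group were induced pluripotent stem cells made from primary neural progenitors of Sox2-eGFP mice (129SvJae x C57BL/6) and grown on inactivated mouse embryo fibroblasts, the feeders, in 2i, a serum-free medium with LIF, the GSK3 inhibitor CHIR99021 and the MEK inhibitor PD0325901. The iPS group were such cells in medium with fetal bovine serum and LIF, without the inhibitors. The NPC group were neural progenitor cells from whole brains of Sox2-eGFP mice of the same cross at postnatal day 1, grown as neurospheres and then plated with EGF and FGF. The ES 2i group were male V6.5 embryonic stem cells (129SvJae x C57BL/6) in 2i, and the ES group the same line in medium with LIF. The labels give no Sox2-eGFP allele for V6.5 cells. ES and iPS cells were moved from feeders to gelatin before harvest. The labels do not say that replicates were separate cultures, and every p-value below rests on the spread of these libraries, which may be technical only. The effect of reprogramming and the difference between 1 ES line and the iPS cells cannot be told apart.

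The libraries held 1150624 to 17286063 reads assigned to a model. Reads in no model were 26.5% of the reads counted in the deepest library, ES replicate 1, and reached 86.6% in NPC replicate 1 and 81.5% in ES replicate 2. A further 35.6% of the reads in ES replicate 1 and 6.00% in NPC replicate 1 were set aside as ambiguous between models. The median count of a member was 67 in NPC replicate 1 and 1556 in ES replicate 1. Levels are given as CPM, the count scaled to the assigned reads of the library after TMM scaling, which adjusts library sizes for composition. They are compared between groups for the same gene, since they are not per length. A ranking across genes is one of scaled counts only. Of 8 pluripotency symbols, all had no count in NPC, and they summed to 6895 and 6894 CPM in iPS 2i, 6782 and 5915 CPM in iPS, 4977 and 5337 CPM in ES 2i and 7405 and 7027 CPM in ES cells, while 6 neural progenitor symbols summed to 7418 and 8926 CPM in NPC and to at most 81.4 CPM elsewhere. Of 7 fibroblast symbols, the summed level was 924 and 940 CPM in iPS 2i, 2758 and 2959 CPM in iPS, 76.2 and 108 CPM in NPC, 457 and 468 CPM in ES 2i, and 1225 and 1414 CPM in ES cells. This sum moved with the groups in every comparison below, and its part in the results was not tested. The single models did not all follow it. Of 9, 2 rose and 3 fell in ES 2i over ES (median -0.13), and 6 rose and 2 fell in iPS over ES. In bulk samples, fewer cells of a type and less RNA per cell cannot be told apart.

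The promoters of 5 members are printed because these genes mark the main patterns: Mrps6 was the member with the largest rise in NPC, Mrpl39 and Mrpl18 were lower in iPS than in ES cells and higher in iPS 2i than in iPS cells, and Mrps26 and Mrps18a went the other way in both. The sequences are those of RefSeq on GRCm38.p6, from 250 bases before to 50 bases after the annotated start, 5′ to 3′ on the strand of the gene. They lie at chr16:92058086-92058385 on the plus strand for Mrps6, chr16:84735195-84735494 on the minus strand for Mrpl39, chr17:12916042-12916341 on the minus strand for Mrpl18, chr2:130563507-130563806 on the plus strand for Mrps26 and chr17:46110754-46111053 on the plus strand for Mrps18a. Capitals mark the matches to 3 core motifs: CCGGAAG of ETS factors such as GABP, CGCATGC of NRF1 and AAGATGG of YY1, searched on both strands.
Mrps6: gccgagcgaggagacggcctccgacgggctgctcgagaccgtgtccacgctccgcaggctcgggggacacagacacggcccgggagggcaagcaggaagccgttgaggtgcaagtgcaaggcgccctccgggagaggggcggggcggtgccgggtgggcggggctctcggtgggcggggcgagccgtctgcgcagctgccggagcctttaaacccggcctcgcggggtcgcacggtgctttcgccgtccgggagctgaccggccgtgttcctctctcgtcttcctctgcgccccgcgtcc
Mrpl39: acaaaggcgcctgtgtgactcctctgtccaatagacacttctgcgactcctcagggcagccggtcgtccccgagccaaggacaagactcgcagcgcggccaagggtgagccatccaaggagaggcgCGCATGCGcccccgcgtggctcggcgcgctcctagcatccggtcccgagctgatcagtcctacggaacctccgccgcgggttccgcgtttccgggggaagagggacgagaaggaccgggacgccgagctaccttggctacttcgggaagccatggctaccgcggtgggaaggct
Mrpl18: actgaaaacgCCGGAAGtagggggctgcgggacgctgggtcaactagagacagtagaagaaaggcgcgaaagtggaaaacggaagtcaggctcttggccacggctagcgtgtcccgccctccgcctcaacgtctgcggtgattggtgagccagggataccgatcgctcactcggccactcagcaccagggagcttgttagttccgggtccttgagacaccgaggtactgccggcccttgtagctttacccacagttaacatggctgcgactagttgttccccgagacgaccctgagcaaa
Mrps26: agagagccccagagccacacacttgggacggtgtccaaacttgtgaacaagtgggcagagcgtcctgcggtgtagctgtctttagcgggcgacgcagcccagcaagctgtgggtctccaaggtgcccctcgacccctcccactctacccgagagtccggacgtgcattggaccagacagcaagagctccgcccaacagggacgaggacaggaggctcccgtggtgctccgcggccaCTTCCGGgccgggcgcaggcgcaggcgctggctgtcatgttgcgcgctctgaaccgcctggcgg
Mrps18a: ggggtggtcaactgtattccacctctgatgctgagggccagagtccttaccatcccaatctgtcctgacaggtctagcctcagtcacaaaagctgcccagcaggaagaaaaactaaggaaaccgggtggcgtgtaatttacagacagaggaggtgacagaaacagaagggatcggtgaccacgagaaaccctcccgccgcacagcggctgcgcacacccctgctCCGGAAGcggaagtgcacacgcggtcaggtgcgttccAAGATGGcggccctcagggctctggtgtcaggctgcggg

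GABP, NRF1 and YY1 are known as regulators of nuclear genes for mitochondrial proteins. The ETS core stood in the promoters of 17 of the 52 member symbols in the RefSeq table (32.7%), against 9.93% of all 27025 symbols. The YY1 core stood in 10 member promoters (19.2%), against 7.28% of all, and the NRF1 core in 6 (11.5%), against 4.01%. At least 1 of the 3 stood in 27 member promoters (51.9%), against 19.3% of all. Among the promoters printed, Mrps18a held an ETS and a YY1 core, Mrpl18 and Mrps26 an ETS core each, and Mrpl39 the palindrome in which the NRF1 core overlaps its own reverse complement. The Mrps6 window held none of these letters. A further gene on the opposite strand started within 1000 bases of 19 of the 52 members (36.5%), against 12.2% of all symbols. One of them is Tcp1, a subunit of the cytosolic chaperonin, whose start lies 238 bases from that of Mrpl18. Such matches are descriptions of letters in a window and say nothing of binding.

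**Figure D1:**
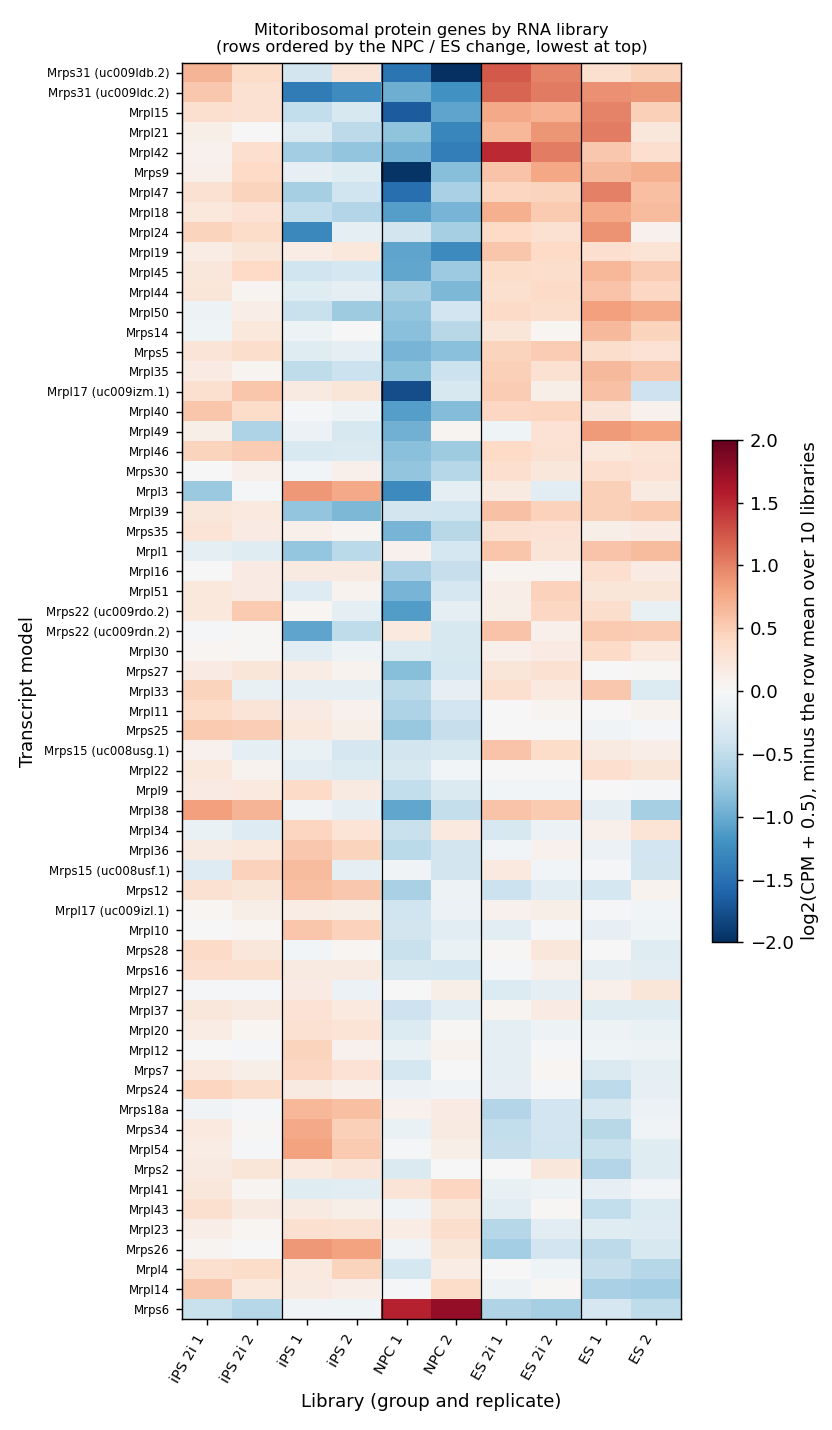
Each row is 1 of the 63 member models that passed the filter and each column 1 of the 10 RNA libraries. The colour is log2(CPM + 0.5) minus the row's mean over the 10 libraries, and rows are ordered by the change of NPC over ES. Most rows near the top are lowest in the 2 NPC columns, and Mrps6 in the last row is highest there.

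The first comparison asks how these genes differ between neural progenitors and pluripotent cells. Mitoribosomal transcripts were mostly lower in NPC than in ES cells: of the 63 models tested, 8 rose and 32 fell, beside 61.0% of all 11031 models called in either direction, 27.3% higher and 33.7% lower. The members' median log2 change was -0.54, against -0.20 over all models. Summed over all members, their reads were 0.465 ± 0.0239% of assigned reads in NPC and 0.653 ± 0.0156% in ES cells (SD, n = 2 each). More models fell than rose under both subunit names and in both classes of origin. Of 40 models of large-subunit names 21 fell and 5 rose, and of 23 of small-subunit names 11 fell and 3 rose. Models specific to mitochondria fell in 16 of 24 cases (median -0.79) and homologues of bacterial proteins in 16 of 38 (median -0.40), a difference that was not tested.

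Among members with a mean log2 CPM of at least 3, the largest fall was that of Mrps31, which encodes a small-subunit protein specific to mitochondria. Its model uc009ldc.2 had 9.21 and 7.82 CPM in NPC, against 35.6 and 34.8 CPM in ES cells, a log2 change of -2.07 ± 0.24 (SE, edgeR adjusted p = 9.77e-09). All NPC values lay below all ES values here and for the next 3 genes. Here and below, genes named for large called changes are favoured to show such gaps, and the share of all models without overlap is not given. Mrpl15, a homologue of a bacterial large-subunit protein, had 36.8 and 56.2 CPM in NPC and 234 and 163 CPM in ES cells (log2 change -2.02 ± 0.18, SE, edgeR adjusted p = 2.00e-11). Mrpl21, also of bacterial descent, had 8.37 and 5.79 CPM in NPC and 31.1 and 17.6 CPM in ES cells (log2 change -1.93 ± 0.31, SE, edgeR adjusted p = 2.40e-06). The ES replicates of Mrpl21 differed by more than the gap between its lowest ES and highest NPC value. Mrps9 model uc007ava.2 had 6.70 and 15.1 CPM in NPC and 43.7 and 45.6 CPM in ES cells (log2 change -1.81 ± 0.24, SE, edgeR adjusted p = 6.94e-08), and its change was -2.78 without NPC replicate 2. The low model uc009ldb.2 of Mrps31 changed by -2.74 ± 0.51 (SE, edgeR adjusted p = 2.58e-05), or by -2.05 without NPC replicate 2. Falls were also called for Mrpl18 (-1.70), Mrpl19 (-1.49) and Mrpl45 (-1.46), the last of which anchors the mitoribosome at the inner membrane in humans.

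Mrps6, the homologue of a bacterial small-subunit protein, went the other way. It had 148 and 171 CPM in NPC, against 39.8 and 35.6 CPM in ES cells, and 48.3 and 47.5 CPM in iPS cells. The NPC values lay above those of every other group, with a log2 change of 2.07 ± 0.15 (SE, edgeR adjusted p = 2.71e-13) over ES. The gene Slc5a3, a carrier of myo-inositol, lies on the same strand within the Mrps6 locus, and its model had 95.4 and 119 CPM in NPC and 7.07 and 5.53 CPM in ES cells (log2 change 3.99 ± 0.23, SE, edgeR adjusted p = 1.47e-15). Reads entered as ambiguous were in no model's count, but how the counter chose them is not stated. How far the reads of the overlapping models are separate was not tested. The next rises were smaller. Mrpl14, whose product sits at the face of the large subunit that meets the small one, had 48.6 and 64.0 CPM in NPC and 31.3 and 30.5 CPM in ES cells (log2 change 0.90 ± 0.17, SE, edgeR adjusted p = 4.52e-05). Mrps26 had 129 and 161 CPM in NPC and 94.4 and 109 CPM in ES cells (log2 change 0.54 ± 0.15, SE, edgeR adjusted p = 0.00186), and Mrpl23, whose product lies at the exit of the peptide tunnel, 112 and 129.5 CPM in NPC and 85.5 and 84.3 CPM in ES cells (log2 change 0.52 ± 0.15, SE, edgeR adjusted p = 0.00245). These 3 calls ended without NPC replicate 2 (edgeR adjusted p = 0.0759, 0.255 and 0.208). The count of rises was 1 without NPC replicate 2, that of Mrps6, 3 without ES replicate 1, 5 without ES replicate 2 or iPS 2i replicate 1, and 8 without NPC replicate 1 and ES replicate 2 together. The count of falls stayed between 27 and 42 whichever library was left out.

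The related lists are set beside the 33.7% of all models that fell in NPC. Of 20 models of assembly and RNA modification factors, 11 fell and 2 rose (median -0.77), with the largest fall for Gtpbp10, a GTPase that matures the large subunit (log2 change -2.18 ± 0.23, SE, edgeR adjusted p = 1.78e-09). Of 11 models of translation factors, 4 fell (36.4%, near the share of all models), none rose and 7 were not called (median -0.92). Lrpprc, which stabilises mitochondrial messages, had 38.5 and 45.5 CPM in NPC and 183 and 149.8 CPM in ES cells (log2 change -1.96 ± 0.18, SE, edgeR adjusted p = 5.10e-11). Gfm1, the elongation factor that moves the mitoribosome along its message, had 77.0 and 82.9 CPM in NPC and 268 and 243 CPM in ES cells (log2 change -1.67 ± 0.14, SE, edgeR adjusted p = 1.53e-11). Of 17 models of the enzymes that charge mitochondrial tRNAs, 7 fell (41.2%), 2 rose and 8 were not called, and none rose without either ES or either NPC library. Of 5 models of 3 mitoribosome proteins with other names, 1 fell and none rose. The falls numbered 2 without either ES library or NPC replicate 2, and 3 without ES 2i replicate 1 or iPS 2i replicate 2. Cytosolic ribosomal proteins fell in 31 and rose in 3 of 76 models (median -0.36), and none rose without ES replicate 2, NPC replicate 2, iPS replicate 1 or iPS 2i replicate 1. The rises among assembly factors numbered 1 without either ES library or NPC replicate 2. Subunits of oxidative phosphorylation had 18 rises and 14 falls in 74 models (median 0.11), or 26 falls without ES replicate 2, and their summed share was 2.17 ± 0.0514% in NPC and 2.09 ± 0.0273% in ES cells (SD, n = 2 each). Among nuclear regulators, Esrra, a receptor known to raise genes of mitochondria, had 112 and 125 CPM in NPC and 16.7 and 21.6 CPM in ES cells (log2 change 2.69 ± 0.18, SE, edgeR adjusted p = 5.68e-14), while Yy1 had 62.0 and 50.4 CPM in NPC and 115 and 131 CPM in ES cells (log2 change -1.16 ± 0.18, SE, edgeR adjusted p = 1.67e-06).

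**Figure D2:**
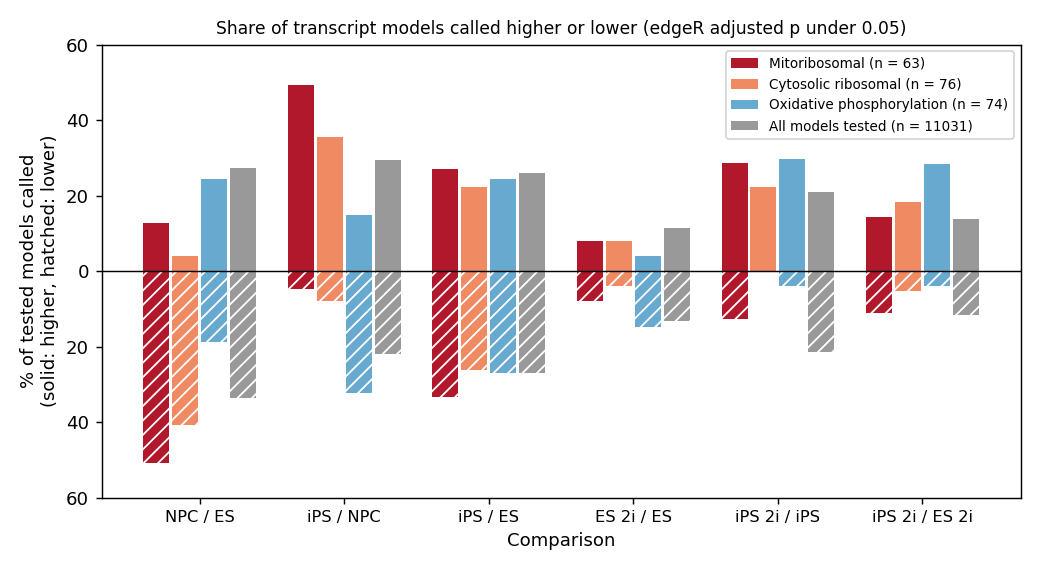
For each of 6 comparisons, bars give the percentage of tested models called higher (solid, upward) or lower (hatched, downward) at an edgeR adjusted p under 0.05, for mitoribosomal proteins (63 models), cytosolic ribosomal proteins (76), oxidative phosphorylation subunits (74) and all models (11031). In NPC over ES the mitoribosomal bar is longer downward, and in iPS over NPC longer upward.

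The comparison of iPS cells with the NPC they were made from asks how the genes changed over reprogramming. It shares its NPC libraries with the first comparison, so the directions of both are not independent. Of the 63 models, 31 rose and 3 fell in iPS cells, beside 51.3% of all models called, 29.3% higher and 22.0% lower, and the median was 0.48, against 0.15 over all. The summed share was 0.601 ± 0.00793% in iPS cells and 0.465 ± 0.0239% in NPC (SD, n = 2 each). Of large-subunit models 17 of 40 rose and 2 fell, and of small-subunit models 14 of 23 rose and 1 fell.

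Among members with a mean log2 CPM of at least 3, the largest rise was that of Mrpl19, a homologue of a bacterial large-subunit protein, with 178 and 186 CPM in iPS cells and 76.2 and 66.1 CPM in NPC (log2 change 1.37 ± 0.14, SE, edgeR adjusted p = 1.48e-09). Its level in iPS cells lay near that in ES cells, at 201 and 192 CPM, and the change of iPS over ES was -0.12 ± 0.13 (SE, edgeR adjusted p = 0.459). Mrpl36, a small zinc-binding protein of the large subunit, had 169.7 and 160.3 CPM in iPS cells and 80.4 and 90.4 CPM in NPC (log2 change 0.93 ± 0.14, SE, edgeR adjusted p = 2.27e-06). Mrpl40, specific to mitochondria, had 169 and 162 CPM in iPS cells and 80.4 and 95.0 CPM in NPC (log2 change 0.89 ± 0.14, SE, edgeR adjusted p = 3.78e-06). In these 3 genes all iPS values lay above all NPC values. Mrps9 model uc007ava.2 rose by 0.92 ± 0.25 (SE, edgeR adjusted p = 0.00242), or by 1.78 without NPC replicate 2. The low model uc009ldb.2 of Mrps31 changed by 2.36 ± 0.54 (SE, edgeR adjusted p = 0.000468), but without NPC replicate 2 its value was 1.56 and the call ended (edgeR adjusted p = 0.140).

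The 3 falls were those of Mrps6, Mrpl41 and Mrpl39. Mrps6 had 48.3 and 47.5 CPM in iPS cells and 148 and 171 CPM in NPC (log2 change -1.75 ± 0.15, SE, edgeR adjusted p = 2.12e-11), and Slc5a3, within its locus, 2.68 and 4.26 CPM in iPS cells and 95.4 and 119 CPM in NPC (log2 change -4.86 ± 0.26, SE, edgeR adjusted p = 3.17e-16). Mrpl41, specific to mitochondria, had 55.5 and 56.2 CPM in iPS cells and 78.7 and 88.7 CPM in NPC (log2 change -0.60 ± 0.15, SE, edgeR adjusted p = 0.00134). Mrpl39, also specific to mitochondria, had 53.2 and 49.2 CPM in iPS cells and 72.0 and 69.8 CPM in NPC (log2 change -0.46 ± 0.15, SE, edgeR adjusted p = 0.00963). The call of Mrpl41 ended without NPC replicate 2 (edgeR adjusted p = 0.0547), and that of Mrpl39 without NPC replicate 2 (edgeR adjusted p = 0.0508) and without any of 3 other libraries, so that Mrps6 alone was left of the falls without NPC replicate 2. Beside the members, 13 of 20 models of assembly factors rose and none fell, among them Rpusd4, a pseudouridine synthase of the mitochondrial ribosomal RNA, with 83.3 and 78.8 CPM in iPS cells and 27.6 and 33.3 CPM in NPC (log2 change 1.36 ± 0.17, SE, edgeR adjusted p = 2.88e-08). Of 11 models of translation factors, 4 rose and 2 fell. Tsfm, the exchange factor of the elongation factor that brings tRNAs, had 51.1 and 39.5 CPM in iPS cells and 24.3 and 18.0 CPM in NPC (log2 change 1.16 ± 0.22, SE, edgeR adjusted p = 4.08e-05). The falls were in models of low level, Mtif2 (-2.43) and Mtrf1l (-1.21), and numbered 1 without either NPC or either iPS library. Cytosolic ribosomal proteins rose in 27 and fell in 6 of 76 models, and oxidative phosphorylation subunits rose in 11 and fell in 24 of 74. Without iPS replicate 1 the falls numbered 1 and 15, and the rises among oxidative phosphorylation subunits 7, as they did without NPC replicate 1. The falls among cytosolic ribosomal proteins numbered 2 without NPC replicate 2 or iPS 2i replicate 1.

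The comparison of iPS with ES cells in media without the inhibitors asks how far the reprogrammed cells differ from pluripotent cells that were never differentiated. Here the members moved both ways: 17 rose and 21 fell in iPS cells, beside 52.9% of all models called, 25.9% higher and 26.9% lower. The median was -0.12, against -0.03 over all, and the summed share was 0.601 ± 0.00793% in iPS and 0.653 ± 0.0156% in ES cells (SD, n = 2 each). Of large-subunit models 10 of 40 rose and 16 fell, and of small-subunit models 7 of 23 rose and 5 fell. The summed feeder fibroblast level was higher in iPS than in ES cells, as given above. Of 8 models of pluripotency symbols, 1 rose and 7 fell (median -0.94), and their part in the results was not tested.

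Mrps31 stood out among the falls. Its model uc009ldc.2 had 6.80 and 7.49 CPM in iPS cells and 35.6 and 34.8 CPM in ES cells (log2 change -2.26 ± 0.20, SE, edgeR adjusted p = 8.44e-11). The iPS values lay just below the NPC values, 9.21 and 7.82 CPM, and the change of iPS over NPC was -0.19 ± 0.29 (SE, edgeR adjusted p = 0.607). The other model of the gene, uc009ldb.2, had 4.12 and 6.64 CPM in iPS and 6.96 and 7.64 CPM in ES cells (log2 change -0.38 ± 0.29, SE, edgeR adjusted p = 0.273). Mrpl47, a homologue of a bacterial protein at the tunnel exit, had 9.49 and 11.4 CPM in iPS and 31.2 and 23.4 CPM in ES cells (log2 change -1.39 ± 0.22, SE, edgeR adjusted p = 2.43e-06). Mrpl50 had 33.2 and 27.4 CPM in iPS and 80.6 and 75.8 CPM in ES cells (log2 change -1.37 ± 0.16, SE, edgeR adjusted p = 1.56e-08), and Mrpl39 53.2 and 49.2 CPM in iPS and 129 and 134 CPM in ES cells (log2 change -1.35 ± 0.13, SE, edgeR adjusted p = 6.17e-10). In each of these genes all iPS values lay below all ES values. Mrpl18, whose promoter is given above, had 137 and 129 CPM in iPS and 329.8 and 299.7 CPM in ES cells (log2 change -1.24 ± 0.13, SE, edgeR adjusted p = 1.52e-09). Its neighbour Tcp1 changed by -0.10 (edgeR adjusted p = 0.728).

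The rises in iPS cells were led by Mrps26, specific to mitochondria, with 247 and 238 CPM in iPS and 94.4 and 109 CPM in ES cells (log2 change 1.26 ± 0.14, SE, edgeR adjusted p = 4.71e-09). Mrpl54 had 224 and 183 CPM in iPS and 93.7 and 108 CPM in ES cells (log2 change 1.02 ± 0.14, SE, edgeR adjusted p = 1.86e-07), and Mrps34, whose span overlaps models of Nme3 and Mapk8ip3, 187 and 154 CPM in iPS and 75.2 and 106 CPM in ES cells (log2 change 0.93 ± 0.15, SE, edgeR adjusted p = 4.91e-06). Mrps18a carries a small-subunit name, but its product is known to sit in the large subunit. It had 197 and 188 CPM in iPS and 98.2 and 114 CPM in ES cells (log2 change 0.87 ± 0.13, SE, edgeR adjusted p = 1.31e-06). These 4 genes kept their calls whichever library was left out, and their iPS values lay above those of all the other groups. The count of rises was 11 without iPS replicate 1, and that of falls stayed between 18 and 25.

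The members that rose in iPS cells spanned less of the genome than those that fell. Their median span in mm9 was 3.72 kb for the 17 that rose and 9.26 kb for the 21 that fell, beside 11.9 kb and 20.7 kb for the named models of all kinds that rose and fell. Across the 63 members, Spearman's correlation coefficient between the log2 change and the span was -0.39, and across all 10355 named models -0.12. The relation was not particular to this comparison. The same 2 coefficients were -0.35 and 0.002 for NPC over ES, and -0.50 and -0.17 for iPS 2i over ES 2i. They were 0.32 and 0.05 for iPS 2i over iPS, -0.09 and -0.09 for iPS over NPC, and -0.004 and 0.02 for ES 2i over ES. Genes are not independent replicates, and all values come from the same libraries, so these are descriptions. Reads in no model, given above by library, were not tested as a part of this.

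**Figure D3:**
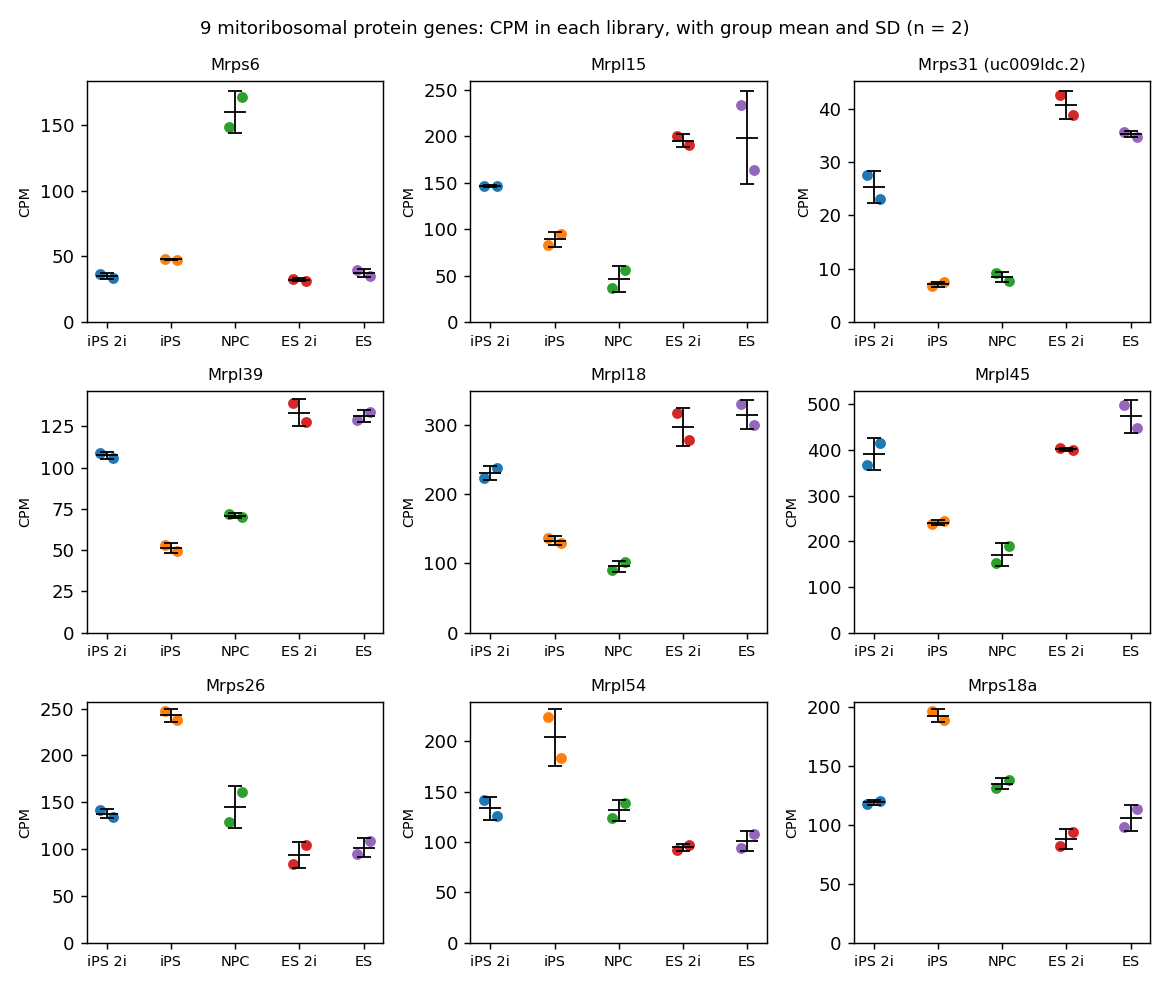
CPM of 9 members in each RNA library, 1 panel a gene, with groups in the order iPS 2i, iPS, NPC, ES 2i and ES; points are libraries, and bars the mean with SD (n = 2). Mrps6 is highest in NPC, Mrps31 (uc009ldc.2), Mrpl39, Mrpl18 and Mrpl45 are lower in iPS than in iPS 2i, and Mrps26, Mrpl54 and Mrps18a are highest in iPS.

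Among the related lists, Lrpprc was lower in iPS than in ES cells. It had 46.8 and 52.9 CPM in iPS and 183 and 149.8 CPM in ES cells (log2 change -1.74 ± 0.16, SE, edgeR adjusted p = 1.13e-10). Gfm1 had 128 and 152 CPM in iPS and 268 and 243 CPM in ES cells (log2 change -0.87 ± 0.13, SE, edgeR adjusted p = 1.30e-06). Both lay lower in all iPS than in all ES libraries, as did Mterfd2, a factor that binds mitochondrial ribosomal RNA, with 14.2 and 17.4 CPM in iPS and 38.2 and 42.7 CPM in ES cells (log2 change -1.32 ± 0.18, SE, edgeR adjusted p = 2.25e-07). Mpv17l2, an inner membrane protein linked to mitoribosome assembly in humans, was higher, with 62.5 and 54.3 CPM in iPS and 14.9 and 16.1 CPM in ES cells (log2 change 1.91 ± 0.17, SE, edgeR adjusted p = 1.12e-10). Esrra was higher too, with 129 and 105 CPM in iPS and 16.7 and 21.6 CPM in ES cells (log2 change 2.65 ± 0.17, SE, edgeR adjusted p = 1.06e-13). By list, beside the 52.9% of all models called, 5 of 11 models of translation factors fell and 1 rose, 5 of 20 of assembly factors fell and 3 rose, 3 of 17 of tRNA-charging enzymes fell and 2 rose, and oxidative phosphorylation subunits rose in 18 and fell in 20 of 74 models. The falls among translation factors numbered 2 without ES replicate 1 or iPS replicate 2, and 3 without iPS replicate 1 or ES 2i replicate 2. Those among assembly factors numbered 3 without ES replicate 1 or iPS replicate 2, and the rises among oxidative phosphorylation subunits 10 without iPS replicate 1. Among tRNA-charging enzymes 1 rose without ES replicate 1.

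The change to 2i medium was compared in each cell kind. In ES cells, 5 members rose and 5 fell, beside 24.5% of all models called, 11.3% higher and 13.2% lower, and the median was -0.01. Mrpl14 had the lowest adjusted p of the rises, with 46.2 and 50.1 CPM in ES 2i and 31.3 and 30.5 CPM in ES cells (log2 change 0.63 ± 0.15, SE, edgeR adjusted p = 0.00261), and the ES 2i values lay above both ES values. Mrpl37, specific to mitochondria, had 211 and 229 CPM in ES 2i and 173 and 171 CPM in ES cells (log2 change 0.35 ± 0.12, SE, edgeR adjusted p = 0.0342). The other 3 rises were in models of low level, Mrpl38 (0.89), Mrpl42 (0.83) and Mrps31 uc009ldb.2 (0.76). The falls of higher level were Mrpl50 (-0.42), Mrps14 (-0.42), Mrpl34 (-0.41) and Mrpl27 (-0.39), each less than 0.5 log2 units, and that of lower level Mrpl49 (-0.74). Of these 10 calls, those of Mrpl14 and Mrpl38 stayed whichever library was left out. The falls numbered 1 without ES replicate 1 or ES 2i replicate 1, and 2 without ES 2i replicate 2, iPS replicate 1 or iPS 2i replicate 1, and the rises 3 without ES replicate 1. The summed share was 0.666 ± 0.0319% in ES 2i and 0.653 ± 0.0156% in ES cells (SD, n = 2 each).

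Tfb1m, which methylates the small ribosomal RNA of mitochondria, rose in ES 2i, with 56.0 and 56.0 CPM in ES 2i and 33.8 and 31.9 CPM in ES cells (log2 change 0.76 ± 0.15, SE, edgeR adjusted p = 0.000228). Of 17 models of tRNA-charging enzymes, 6 rose and none fell (median 0.43). The largest were in the low models of Pars2 (0.87) and Tars2 (0.84), followed by Fars2, with 18.9 and 24.9 CPM in ES 2i and 13.3 and 12.9 CPM in ES cells (log2 change 0.73 ± 0.20, SE, edgeR adjusted p = 0.00594). The rises numbered 1 without ES replicate 1 and 2 without ES 2i replicate 2. Oxidative phosphorylation subunits fell in 11 and rose in 3 of 74 models. Those falls numbered 3 without ES 2i replicate 1, 5 without ES replicate 1 and 6 without ES 2i replicate 2, and 7 without ES replicate 2, iPS replicate 1 or iPS 2i replicate 1.

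In iPS cells, members moved both ways with 2i. Of 63, 18 rose and 8 fell in iPS 2i, beside 42.6% of all models called, 21.1% higher and 21.5% lower, and the median was 0.19, against 0.03 over all. The summed share was 0.678 ± 0.00537% in iPS 2i and 0.601 ± 0.00793% in iPS cells (SD, n = 2 each). By origin, 11 of 24 models specific to mitochondria rose and 3 fell, and of bacterial homologues 7 of 38 rose and 5 fell. The summed fibroblast level was lower in iPS 2i than in iPS cells, as given above, and of the 8 pluripotency models 5 rose and 1 fell (median 0.90). The part of either was not tested.

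The largest rise was again in Mrps31 uc009ldc.2, with 27.5 and 23.1 CPM in iPS 2i and 6.80 and 7.49 CPM in iPS cells (log2 change 1.77 ± 0.21, SE, edgeR adjusted p = 3.04e-08). Mrpl39 had 109 and 106 CPM in iPS 2i and 53.2 and 49.2 CPM in iPS cells (log2 change 1.07 ± 0.13, SE, edgeR adjusted p = 1.10e-07). Mrpl47 had 18.9 and 20.9 CPM in iPS 2i and 9.49 and 11.4 CPM in iPS cells (log2 change 0.91 ± 0.22, SE, edgeR adjusted p = 0.00121). All 3 are members that were lower in iPS than in ES cells, a comparison that shares the iPS libraries with this one. Mrpl18 had 223 and 237 CPM in iPS 2i and 137 and 129 CPM in iPS cells (log2 change 0.79 ± 0.13, SE, edgeR adjusted p = 7.41e-06). Of members with a mean log2 CPM of at least 3, the falls were led by Mrps26, with 141 and 135 CPM in iPS 2i and 247 and 238 CPM in iPS cells (log2 change -0.81 ± 0.14, SE, edgeR adjusted p = 1.20e-05), and by Mrps18a, with 118 and 120.1 CPM in iPS 2i and 197 and 188 CPM in iPS cells (log2 change -0.69 ± 0.13, SE, edgeR adjusted p = 5.44e-05). In these 6 genes the libraries of the groups did not overlap, but they were named for large called changes, which favours such a gap. Mrpl54 (log2 change -0.61 ± 0.13, SE, edgeR adjusted p = 0.000397) and Mrpl34 (log2 change -0.54 ± 0.15, SE, edgeR adjusted p = 0.0034) fell as well, but both calls ended without iPS replicate 1 (edgeR adjusted p = 0.0537 and 0.0678). Without iPS replicate 1 the falls numbered 2, and without either iPS 2i library 5.

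Beside the members, Lrpprc had 90.2 and 129 CPM in iPS 2i and 46.8 and 52.9 CPM in iPS cells (log2 change 1.14 ± 0.16, SE, edgeR adjusted p = 6.85e-07), and Mterfd2 36.1 and 34.5 CPM in iPS 2i and 14.2 and 17.4 CPM in iPS cells (log2 change 1.14 ± 0.18, SE, edgeR adjusted p = 5.20e-06). Esrra had 71.5 and 60.1 CPM in iPS 2i and 129 and 105 CPM in iPS cells (log2 change -0.83 ± 0.16, SE, edgeR adjusted p = 6.23e-05). Oxidative phosphorylation subunits rose in 22 and fell in 3 of 74 models, and cytosolic ribosomal proteins rose in 17 and fell in none of 76. The rises of the first list numbered 13 without iPS replicate 1 and 14 without iPS 2i replicate 1. Those of the second numbered 6 without iPS replicate 1, 9 without iPS 2i replicate 1, 10 without iPS replicate 2 and 27 without ES replicate 2.

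Whether the response to 2i differed between iPS and ES cells was tested as an interaction, the change in iPS cells minus the change in ES cells. It was called for 16 members, 12 with a higher and 4 with a lower value in iPS cells, beside 27.3% of all models, 15.1% higher and 12.2% lower, and the median was 0.07. Of the 8 pluripotency models it was called higher for 5 and lower for 1 (median 0.96), and their part was not tested. For Mrps31 uc009ldc.2 the difference was 1.57 ± 0.26 (SE, edgeR adjusted p = 3.59e-05), made of 1.77 ± 0.21 in iPS cells and 0.21 ± 0.16 in ES cells (SE). For Mrpl39 it was 1.04 ± 0.18 (SE, edgeR adjusted p = 6.06e-05), made of 1.07 ± 0.13 in iPS cells and 0.03 ± 0.12 in ES cells. These genes changed in iPS cells, while no change was called in ES cells. For Mrpl50, by contrast, the difference of 1.03 ± 0.22 (SE, edgeR adjusted p = 0.00055) held a rise in iPS cells (0.61 ± 0.16) and a fall in ES cells (-0.42 ± 0.15). Mrpl45 (0.94), Mrpl18 (0.88), Mrpl35 (0.79) and Mrpl47 (1.34) were called higher as well, and these 7 calls stayed whichever library was left out. The 4 lower values were those of Mrps26 (-0.71), Mrpl36 (-0.54), Mrpl54 (-0.53) and Mrpl10 (-0.49). None of the 4 was called without ES 2i replicate 2 (edgeR adjusted p of 0.0599 for Mrps26), 1 was without iPS replicate 1 or either iPS 2i library, and 1 without the filter on low counts.

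**Figure D4:**
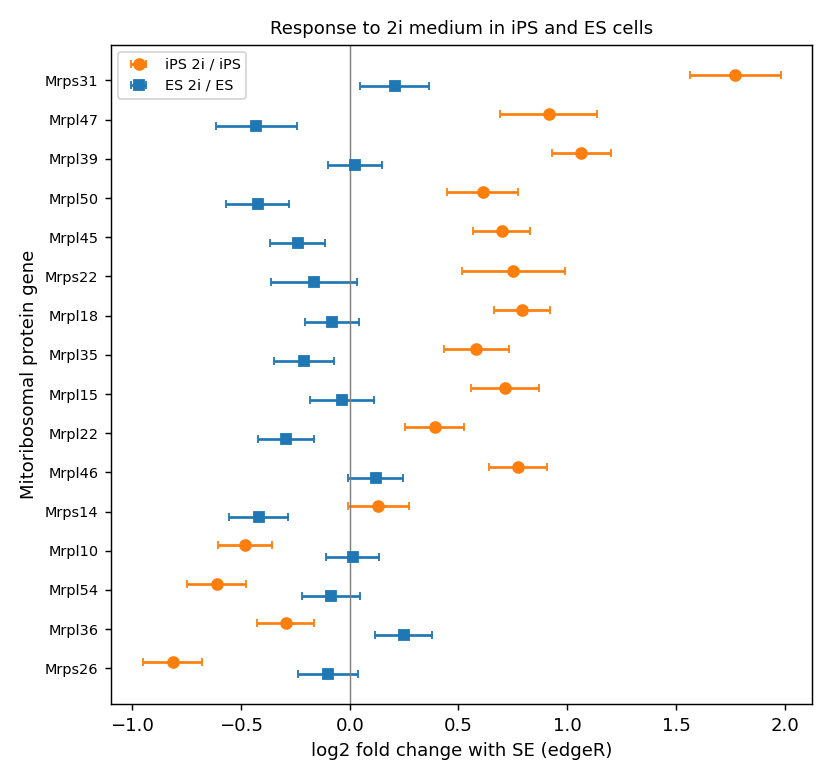
For the 16 members whose response to 2i differed between iPS and ES cells, points give the log2 change of iPS 2i over iPS and of ES 2i over ES, with SE (edgeR, 2 libraries a group). The iPS points spread from -0.81 for Mrps26 to 1.77 for Mrps31, while the ES points stay within 0.5 of 0.

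The last comparison sets iPS against ES cells when both are in 2i. Of the 63 models, 9 members rose and 7 fell, beside 25.3% of all models called, 13.7% higher and 11.6% lower, and the median was 0.06. Mrps31 uc009ldc.2 was lower here too, with 27.5 and 23.1 CPM in iPS 2i and 42.5 and 38.8 CPM in ES 2i (log2 change -0.69 ± 0.17, SE, edgeR adjusted p = 0.00227). Mrpl21 had 16.4 and 15.0 CPM in iPS 2i and 24.1 and 28.2 CPM in ES 2i (log2 change -0.74 ± 0.21, SE, edgeR adjusted p = 0.0101). Mrps12, a homologue of a bacterial protein of the decoding centre, had 167 and 159 CPM in iPS 2i and 99.6 and 114 CPM in ES 2i (log2 change 0.61 ± 0.15, SE, edgeR adjusted p = 0.00262), and Mrps26 141 and 135 CPM in iPS 2i and 84.4 and 104 CPM in ES 2i (log2 change 0.55 ± 0.14, SE, edgeR adjusted p = 0.00304). The values of the groups did not overlap in these 4 genes. Mrps34 (0.55) and Mrps25 (0.51) rose, and Mrpl1 (-0.65), Mrps15 uc008usg.1 (-0.53) and the low Mrpl42 (-1.07) fell. Of the 16 calls, those of Mrps31 uc009ldc.2 and Mrpl42 stayed whichever library was left out, and the rises numbered 1 without ES 2i replicate 1 or iPS 2i replicate 1. The falls numbered 14 without ES replicate 2, 11 without NPC replicate 2, 3 without ES 2i replicate 1 and 4 without either iPS 2i library. Over the oxidative phosphorylation list, 21 of 74 models rose and 3 fell, with 5 rises without iPS 2i replicate 1, 6 without ES 2i replicate 1 and 12 without iPS 2i replicate 2.

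Of the 63 models, 56 were called in at least 1 of the 7 tests. That share was not computed over all models, of which 61.0% were called in NPC over ES alone. The 7 members called in no test were Mrps2, Mrps28, Mrpl33, both models of Mrpl17, Mrps15 uc008usf.1 and Mrps22 uc009rdo.2. Mrps28 was well covered, with 99.8 and 89.8 CPM in iPS 2i, 73.8 and 79.2 CPM in iPS, 56.1 and 69.5 CPM in NPC, 77.8 and 89.5 CPM in ES 2i and 76.0 and 64.5 CPM in ES cells, whereas Mrps2 lay between 1.96 and 3.92 CPM in every library. Mrps22 uc009rdo.2 and the second model of Mrpl17, uc009izm.1, were also under 4 CPM, and no change in them was detectable at this depth. By scaled counts, which are not per length, the members with the highest mean were Mrpl10 and Mrpl20, both of bacterial descent, and Mrpl45. Mrpl10, part of the base of the stalk that recruits factors, had 259 and 264 CPM in iPS 2i, 377 and 354 CPM in iPS, 198 and 222 CPM in NPC, 222 and 253 CPM in ES 2i and 230.3 and 241 CPM in ES cells. Mrpl20 had 296 and 273 CPM in iPS 2i, 328 and 321 CPM in iPS, 219 and 271 CPM in NPC, 234 and 249 CPM in ES 2i and 248 and 242 CPM in ES cells. Both were highest in iPS cells. The lowest by the same measure were Mrpl48, Mrps9 uc007avb.1 and Mrpl24, which stayed under 3 CPM.

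Mrpl24 is the only member with fragments in a region measured by chromosome conformation capture carbon copy (5C), which counts ligations between pairs of HindIII fragments through forward and reverse primers. It lies in the region around Nestin, a gene of neural progenitors, on chromosome 3. Its RNA was low, with 0.837 and 0.579 CPM in NPC and 2.69 and 1.32 CPM in ES cells (log2 change -1.50 ± 0.68, SE, edgeR adjusted p = 0.0566), and its span overlaps that of BC023814. In iPS cells it had 0.206 and 1.02 CPM (log2 change -1.50 ± 0.51 over ES, SE, edgeR adjusted p = 0.0145), and without iPS replicate 1 that call ended (edgeR adjusted p = 0.205), while without iPS replicate 2 the value was -2.51. A forward primer covers the left fragment (chr3:87722028-87724360, mm9) and a reverse primer the right fragment (chr3:87724362-87727604). Of their 202 pairs within the region, 189 had a mean of at least 10 counts and were tested, 101 of the left and 88 of the right fragment. With each pair set against the total of its library, region and distance stratum, 19 pairs were higher and 32 lower in NPC than in ES cells, beside 17.9% of all 75889 pairs called and 18.2% in the Nestin region. The adjacent fragments went opposite ways: of the left, 2 rose and 32 fell (median -0.73), and of the right, 17 rose and none fell (median 0.71). The total of the left primer was 27865 and 28336 counts in NPC and 68781 and 69921 in ES cells, and that of the right primer 14301 and 17952 in NPC and 17074 and 15146 in ES cells. Left and right differ in primer as well as in place, so the contact and the recovery of a primer cannot be told apart in these values. The pairs called numbered 21 without ES replicate 2, 31 without NPC replicate 2 and 33 without ES replicate 1.

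A second fit, chosen after seeing the data, therefore also matched each primer's total across libraries. It called 15 pairs higher and 18 lower in NPC than in ES cells, beside 13.9% of all pairs, with 11 higher and 11 lower for the left and 4 and 7 for the right fragment. By the side of Mrpl24, between 50 and 170 kb to the right, 9 of 25 pairs rose and none fell, and beyond 170 kb 2 of 76 rose. To the left, between 50 and 200 kb, 7 of 33 fell and none rose, and beyond 200 kb 4 of 36 fell. Within 50 kb to the left 3 of 10 rose and 4 fell, and within 20 kb to the right 1 of 5 rose and 3 fell. These windows were not planned, are of uneven width and differ between the sides. The share of all pairs called at such distances is not given here, so the counts by window are descriptions only. Matching a primer's total centres the changes of its pairs, so rises in some go with falls in others. The mixing of left and right fragments is thus set by the balanced fit, and the sides of Mrpl24 are not independent in it.

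A fragment at Hdgf, a growth factor gene, lies 13.8 kb to the left. Its contact with the left Mrpl24 fragment had 782 and 873 normalised counts in NPC and 1350 and 1513 in ES cells, a log2 change of -0.79 ± 0.15 (SE; edgeR adjusted p = 0.00222). The contact of the right fragment with a Hdgf fragment 13.2 kb away had 231 and 276 counts in NPC and 496 and 594 in ES cells (-1.10 ± 0.21; edgeR adjusted p = 0.00243). In the balanced fit both Mrpl24 fragments thus had lower counts with these Hdgf fragments in NPC. The first fit did not show this for the right fragment, where 17 of 88 pairs were called higher and none lower. On the other side, a fragment of Isg20l2, 18.2 kb to the right, had 462 and 495 counts with the left fragment in NPC and 1026 and 1165 in ES cells (-1.19 ± 0.16; edgeR adjusted p = 0.000258). Both pairs shown from farther to the right were higher in NPC. A fragment 151.5 kb away had 746 and 814 counts with the left fragment in NPC and 388 and 304 in ES cells (1.17 ± 0.19; edgeR adjusted p = 0.000954). A fragment near Iqgap3, 162.8 kb away, had 563 and 511 counts with the right fragment in NPC and 337 and 307 in ES cells (0.73 ± 0.19; edgeR adjusted p = 0.0156). The replicates of NPC and of ES cells did not overlap in any of these 5 pairs. All 5 were shown from the pairs called, which favours such a gap, and the share of all pairs without overlap is not given here. Without ES replicate 2 the balanced fit called 13 pairs in all, 2 higher and 11 lower, and 22 without NPC replicate 1.

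**Figure D5:**
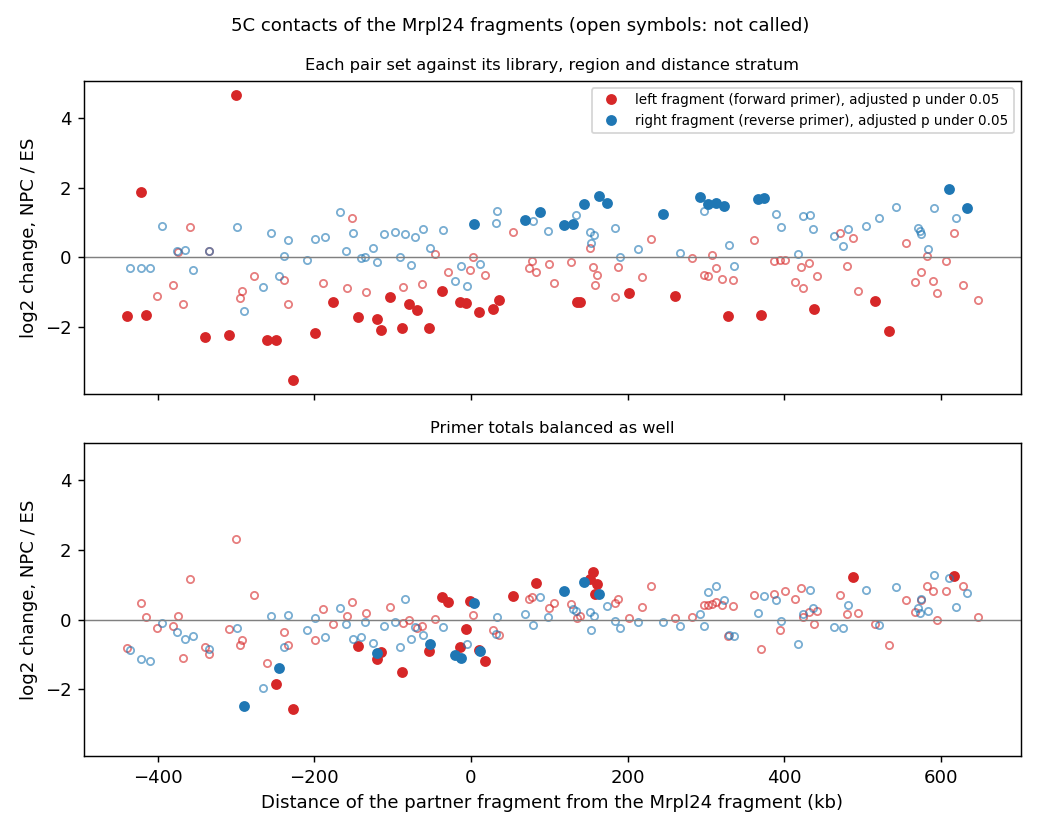
Log2 change of NPC over ES in 5C contacts of the left (forward primer) and right (reverse primer) Mrpl24 fragments, by the distance of the partner fragment in kb; filled points passed an edgeR adjusted p under 0.05. In the upper panel left and right fragments separate, with 32 of 101 left pairs lower and 17 of 88 right pairs higher. In the lower panel, with primer totals balanced, both are mixed, which the balancing imposes. The called pairs beyond 50 kb there lie above 0 to the right and below 0 to the left, sides that the balancing makes dependent.

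Between iPS cells and NPC the first fit called 16 Mrpl24 pairs higher and none lower, beside 6.90% of all pairs, and the balanced fit 16 higher and 23 lower, beside 13.4%. In the balanced fit, by the same unplanned windows, 12 of the 25 pairs between 50 and 170 kb to the right fell in iPS cells and none rose. Beyond 200 kb to the left, 6 of 36 rose. These NPC libraries are those of the comparison with ES cells. The balanced fit called 12 pairs without iPS replicate 1, 20 without iPS replicate 2 and 21 without NPC replicate 1, and the first fit 7 without iPS replicate 1. For the Isg20l2 fragment 18.2 kb away, iPS cells had 1217 and 1022 counts, against 462 and 495 in NPC.

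Between iPS and ES cells the first fit called 4 pairs higher and 7 lower, beside 5.18% of all, and the balanced fit none, beside 0.0171%, with 19 pairs (10.1%) at an unadjusted p under 0.05, beside 7.77% of all. Without ES replicate 1, ES replicate 2 or iPS replicate 2 the first fit called 4, 3 and 4, and without NPC replicate 1 it called 17. Between ES 2i and ES cells it called 8 higher and 29 lower, beside 11.8%, and the balanced fit 1, beside 0.788%. The first fit called 19 without ES replicate 1, 9 without ES replicate 2, 12 without ES 2i replicate 1 and 14 without ES 2i replicate 2. In the first fit the fragments again went opposite ways. The left had 2 rises and 29 falls (median -0.81), and the right 6 rises and no falls (median 0.64). Between iPS 2i and iPS cells no Mrpl24 pair was called by edgeR, beside 0.0514% of all pairs, and 17 (8.99%) had an unadjusted p under 0.05, beside 7.89% of all pairs. Between iPS 2i and ES 2i none was called, beside 0.00% of all, and 8 (4.23%) had an unadjusted p under 0.05, beside 5.10% of all. The balanced fit called none in either, beside 0.0198% and 0.00% of all pairs, with 15 (7.94%) and 0 at an unadjusted p under 0.05, beside 8.69% and 2.59% of all. The interaction was called in 3 pairs, 1 higher and 2 lower, beside 1.94% of all, and in 1 without either ES library, ES 2i replicate 2, iPS replicate 2 or iPS 2i replicate 1. It was called in none by the balanced fit, beside 0.00264%, with 11 (5.82%) at an unadjusted p under 0.05, beside 5.29% of all.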

How the data were processed

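RNA was measured in 10 libraries, 2 for each of 5 groups, from stranded total RNA depleted of ribosomal RNA, per the labels' protocols. The deposited RNA files hold counts of reads per UCSC transcript model, and the submitters' processing notes name TopHat2 2.1.0, HTSeq and mm9. Reads entered as ambiguous were not assigned to a model, and the rule for shared reads and strands is not stated in these sources. The authors' deposited expression table holds log2 values of counts plus 1, divided by 1 constant per library, and was used only for names and positions. The deposited 5C files hold counts of forward and reverse primer pairs. Of 55419 models, 11031 passed edgeR's filterByExpr, and 92 spike-in and 5 summary entries were left out. All 10 libraries were fitted together by group with edgeR 4.0.16 (TMM scaling, quasi-likelihood test, Benjamini-Hochberg adjustment over 11031 models, threshold 0.05, prior count 2, biological coefficient of variation 0.117, 5 residual degrees of freedom). The SE is the log2 change divided by the root of F. The 5C pairs with a mean of at least 10 counts were fitted likewise, with offsets for library, region and 20 distance strata. The RNA fit and this first 5C fit were run on simulated data. The changes put into the 5C simulation were larger than those reported here, so it does not show how well changes of the reported size are found. The balanced 5C fit was not simulated. Alternatives were DESeq2 1.42.0, RLE scaling, no low-count filter, models summed per symbol, a replicate block and leaving out each library.

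Named members are the 4 largest rises and 4 largest falls per comparison with a mean log2 CPM of at least 3, those called in no comparison, the 3 highest and 3 lowest, up to 8 of the interaction and those in a 5C region. Up to 3 genes of each related list were named by the same rule. Further members that the text names were chosen after their values were seen. The members and the gene lists were chosen with earlier results of these data known. Same-numbered libraries did not deviate together (correlations of -0.08 to 0.07), so the numbers were not used as pairs. Mrps18c was not analysed here.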

Additional observations from a re-analysis of the deposited data

Results flagged for a closer look

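The response to 2i differed between iPS and ES cells in 16 of 63 members by the interaction test of edgeR. The same test called 27.3% of all models, so the count is not particular to the members. Values are log2 changes in iPS minus those in ES cells. The differences were 1.57 ± 0.26 for Mrps31 uc009ldc.2, 1.34 ± 0.29 for Mrpl47, 1.04 ± 0.18 for Mrpl39, 1.03 ± 0.22 for Mrpl50, 0.94 ± 0.18 for Mrpl45, 0.88 ± 0.18 for Mrpl18 and 0.79 ± 0.20 for Mrpl35 (SE), and these 7 were called whichever library was left out. They were 0.92 ± 0.31 for Mrps22 uc009rdn.2, 0.75 ± 0.21 for Mrpl15, 0.68 ± 0.19 for Mrpl22, 0.65 ± 0.18 for Mrpl46 and 0.55 ± 0.20 for Mrps14, each lost without at least 1 library. Below 0 were Mrps26 with -0.71 ± 0.19, Mrpl36 with -0.54 ± 0.18, Mrpl54 with -0.53 ± 0.19 and Mrpl10 with -0.49 ± 0.18, each lost without at least 1 library as well. The edgeR adjusted p ranged from 3.59e-05 for Mrps31 to 0.0368 for Mrpl54. The fibroblast symbols summed to 924 and 940 CPM in iPS 2i, 2758 and 2959 CPM in iPS, 457 and 468 CPM in ES 2i and 1225 and 1414 CPM in ES cells, and their part in these differences was not tested.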

How the results depend on the processing

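Of the 180 calls of members over the 7 tests, 102 stayed whichever library was left out and 134 under every other setting, and no member's direction reversed. With 1 library left out, the members called higher and lower numbered 1 to 8 and 27 to 42 for NPC over ES, 27 to 33 and 1 to 3 for iPS over NPC, 11 to 18 and 18 to 25 for iPS over ES, 3 to 5 and 1 to 5 for ES 2i over ES, 12 to 22 and 2 to 8 for iPS 2i over iPS, 1 to 10 and 3 to 14 for iPS 2i over ES 2i, and 8 to 17 and 0 to 5 for the interaction. Without the low-count filter, 2 were higher in NPC over ES against 8, 1 was lower in ES 2i over ES against 5, 5 were higher in iPS 2i over ES 2i against 9, and 1 was lower in the interaction against 4. DESeq2 called 3 higher and 3 lower in ES 2i over ES, against 5 and 5. Without NPC replicate 1 and ES replicate 2, chosen for their reads in no model, 2 were higher there. The cause of these moves was not tested. Of the other lists, Lars2, which charges mitochondrial leucine tRNA, changed by -2.56 in iPS 2i over ES 2i and -3.20 in the interaction, and by 0.81 and 0.22 without ES 2i replicate 1. With other single libraries left out these values went down to -3.54 and -5.47.

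With 1 library left out, the Mrpl24 pairs called by 5C numbered 21 to 53 for NPC over ES, 7 to 18 for iPS over NPC, 3 to 17 for iPS over ES, 9 to 39 for ES 2i over ES, 0 to 1 for iPS 2i over iPS, 0 for iPS 2i over ES 2i and 1 to 4 for the interaction. With balanced primer totals they numbered 33 for NPC over ES, 39 for iPS over NPC, 0 for iPS over ES, 1 for ES 2i over ES and 0 for the interaction, against 51, 16, 11, 37 and 3. At a mean of at least 30 counts, 1 pair was called for iPS 2i over iPS and 6 for the interaction. The replicate block, fitted though the numbers did not pair the samples, gave 18 pairs for iPS over ES, 1 for iPS 2i over iPS and 7 for the interaction. For the RNA of members the block gave 8 higher and 31 lower in NPC over ES. Depth was lowest in NPC replicate 1, with a median member count of 67.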
